A study of Homo sapiens with 3 samples.

Results

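The genes described here encode the lamins, proteins of the inner nuclear membrane and the LINC complex, which together build the lining of the nucleus and tie it to the cytoskeleton. They were chosen by name: LMNA, LMNB1 and LMNB2 (lamins), LBR, TMPO and EMD (inner membrane), and SUN1, SUN2, SYNE1 and SYNE2 (LINC). They were taken from the deposited table of 17201 genes, so that all 10 of the 10 were listed follows from their choice. Of 19120 protein-coding RefSeq genes paired with a single Ensembl identifier, 60.6% were in the table, and nothing is read from the difference. RNA bound to the zinc-finger protein CTCF was recovered by PAR-CLIP from U2OS, a human osteosarcoma cell line. In this method cells take up 4-thiouridine (here 400 µM for 16 to 24 h), light of 365 nm at 400 mJ/cm2 links it to proteins in contact with the RNA, and the RNA that comes down with the protein is sequenced. The labels describe 2 biological replicates from different antibody lots and a merge of their sequencing data, and all share the cell line, the label, the light and the precipitated protein. Counts of the merge were used, so each gene has 1 value, no replicate error and no p-value. A control precipitation and the abundance of each RNA in U2OS nuclei were not analysed here. A count is thus RNA recovered, not enrichment over the RNA present.

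Lamins are intermediate filament proteins that form a meshwork under the inner nuclear membrane. LMNA gives the A-type lamins by alternative splicing, and LMNB1 and LMNB2 give the B-type lamins, which stay attached to the membrane by a lipid tail. LBR, emerin (EMD) and the LAP2 proteins made from TMPO bind lamins and chromatin. SUN proteins cross the inner membrane and hold nesprins (SYNE genes) in the outer membrane, and nesprins reach actin, intermediate filaments and motor proteins. CTCF anchors chromatin loops, and lamina-bound chromatin domains often have CTCF sites at their borders.

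The table sums to 1322047 counts. These 10 genes held 2178 of them, or 0.165% (95% Clopper-Pearson interval 0.158 to 0.172%). Poisson and Clopper-Pearson intervals here cover counting error only, and amplified molecules are not independent. Counts were made over the gene interval that the table lists, in build hg19. In 2436 pairs where one listed interval lay inside another, the inner gene never had more counts than the outer (0 pairs), so a read in an overlap may enter both genes. Whether strand was used in counting is not given. The listed intervals were not compared with an annotation of hg19, so how much of each gene they span was not measured. Every value per kb rests on the listed length. For LMNB2 the RefSeq start lies within 2456910 to 2457209 of chromosome 19 in build GRCh38.p14, past the listed end of 2433897 in hg19. Positions were not converted between builds, but the short LMNB2 interval may leave out part of the gene. The intervals of LMNA and SUN1 may also leave out part of their genes. Of markers of the cell line's mesenchymal origin, 8 of 10 were listed, led by FN1 (fibronectin) at 1277 counts, while COL1A2 and TWIST1 were not. None (0) of 5 blood markers, 2 of 5 muscle markers, 3 of 5 epithelial markers and 4 of 4 neuronal markers were listed. Of the protein-coding RefSeq genes described above, 60.6% were listed. The muscle markers found were TTN at 86 counts over 281 kb and ACTA1 at 10. EPCAM and ESRP1 were not listed, while KRT8 had 206 counts, KRT18 146 and CDH1 13. The 4 neuronal markers had 38 to 144 counts over intervals of 88.6 to 586 kb, or 0.127 to 0.429 per kb. A gene that is not listed had under 6 counts, the lowest in the table, or was not among the features counted.

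Counts of the 10 genes ran from 7 to 687, with a median of 123. The median over the 12220 listed protein-coding genes was 43, with quartiles of 17 and 104. Of the 10 genes, 5 had 100 counts or more, against 26.1% of listed protein-coding genes. These were SYNE1, SYNE2, LBR, LMNB1 and TMPO. SYNE1 and SYNE2 together held 57.4% of the counts of the 10 genes, and without them the median was 75 (a choice made after seeing the data). Over the 5 genes that overlap no other listed gene the median was 65, against 38 for protein-coding genes without overlap. Only EMD lay below the protein-coding median.

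**Figure D1:**
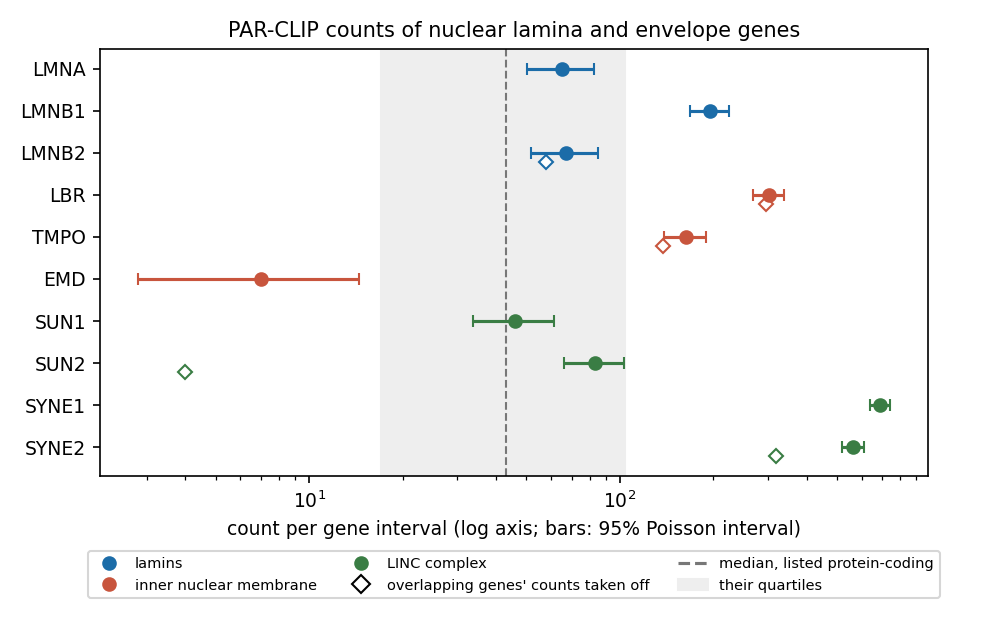
Counts per gene interval for the 10 genes on a log axis, in order of role, with bars for the exact 95% Poisson interval. The dashed line and grey band are the median (43) and quartiles (17 and 104) of listed protein-coding genes; open diamonds are counts after those of overlapping listed genes were taken off, which moved SUN2 from 83 to 4 and SYNE2 from 563 to 319.

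Among the lamins, LMNB1 had the most counts and LMNB2 the most per kb of listed interval. LMNB1 had 195 counts (95% Poisson interval 169 to 224) over 60.4 kb of chromosome 5 (126112315 to 126172706), which is 3.23 counts per kb. LMNB2 had 67 counts (51.9 to 85.1) over a 6.26 kb interval on chromosome 19 (2427636 to 2433897), or 10.7 per kb. LMNA had 65 counts (50.2 to 82.8) over 51.9 kb of chromosome 1 (156052364 to 156104278), or 1.25 per kb. LMNA and LMNB2 thus had nearly equal counts over listed intervals of very unequal length. Either interval may leave out part of its gene, so these counts, shares and values per kb may not be those of whole genes. Per kb of listed interval, LMNB2 was 8.55 times LMNA (95% interval 5.98 to 12.2) and 3.31 times LMNB1 (2.47 to 4.39). These intervals cover counting error and not the choice of interval. LMNB1 was 2.58 times LMNA per kb (1.94 to 3.47). LMNA held 19.9% of the 327 lamin counts (15.7 to 24.6%), but 8.25% of the summed counts per kb. LMNA and LMNB1 overlapped no listed gene. LMNB2 shared 0.257 kb at its edge with TIMM13, a mitochondrial import chaperone gene, which had 9 counts. Taking off all of these left LMNB2 at 58 counts.

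LBR, the lamin B receptor, also an enzyme of sterol synthesis, had the highest count of the inner membrane genes and the highest value per kb of all 10 genes. It had 302 counts (269 to 338) over 26.5 kb of chromosome 1 (225589204 to 225615737), or 11.4 per kb, which placed it 702nd of the 12220 protein-coding genes per kb. TMPO had 163 counts (139 to 190) over 34.9 kb of chromosome 12 (98909290 to 98944157), or 4.67 per kb. EMD, an X-linked gene mutated in a form of muscular dystrophy, had 7 counts (2.81 to 14.4) over 2.33 kb (153607557 to 153609883). Its 3.01 counts per kb have an interval of 1.21 to 6.20, so its place among the other genes is poorly resolved. LBR was 2.43 times TMPO per kb (2.01 to 2.96) and 3.78 times EMD (1.81 to 9.49). TMPO was 1.55 times EMD, with an interval of 0.737 to 3.93 that includes 1. Inside LBR lies an unnamed protein-coding gene with 6 counts, which is 1.99% of the LBR count.

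TMPO overlapped TMPO-AS1, a non-coding gene annotated as antisense, which had 25 counts (16.2 to 36.9) over 3.45 kb. The shared stretch was 0.911 kb, and TMPO kept at least 138 counts outside it. Per kb TMPO-AS1 had 7.25 counts against 4.67 for TMPO. This was the only overlap with a named antisense gene among the 10. The bases before a RefSeq start of TMPO are shown because the TMPO interval begins inside that of TMPO-AS1. The 250 bases are on the plus strand at chr12:98515323-98515572 of GRCh38.p14 (RefSeq), a build other than that of the counts. They are 64.8% G or C. Capitals mark the letters CCCTC, from which CTCF takes its name, on either strand (1 match, read as GAGGG). The window of another RefSeq start of TMPO, at 98515340 to 98515639, leaves this match out and had 0 matches.

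TMPO: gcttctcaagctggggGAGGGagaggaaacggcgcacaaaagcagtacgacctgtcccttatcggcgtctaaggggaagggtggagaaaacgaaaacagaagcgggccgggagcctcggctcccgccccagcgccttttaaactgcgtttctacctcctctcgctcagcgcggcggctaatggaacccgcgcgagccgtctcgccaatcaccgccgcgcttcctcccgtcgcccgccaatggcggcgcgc

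RefSeq start windows, from 250 bases before to 50 after a start, were at hand for 9 of the genes (20 windows), and SUN1 had none. CCCTC was found on either strand in 13 of the 20 windows and in 71.2% of all 35116 windows. These are matches of letters and not measured binding, and the PAR-CLIP counts cover RNA of the gene bodies.

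In the LINC complex, the giant nesprin genes had the highest counts and, as listed, the lowest values per kb. SYNE1 had 687 counts (637 to 740) over 516 kb of chromosome 6 (152442819 to 152958534), which placed it 132nd of the protein-coding genes by count. SYNE2 had 563 counts (517 to 611) over 373 kb of chromosome 14 (64319701 to 64693151), and was 208th. Per kb they had 1.33 and 1.51 counts, both a little under the protein-coding median of 1.54 (percentiles 45.2 and 49.3). SYNE2 was 1.13 times SYNE1 per kb (1.01 to 1.27), whereas by count it held 45.0% of the pair (42.3 to 47.8%). The SYNE2 interval overlapped 142 kb of ESR2, the oestrogen receptor beta gene, which had 244 counts over 210 kb. If every ESR2 count were shared, SYNE2 would keep 319 counts, or 1.38 per kb of the 231 kb left, which is within counting error of SYNE1. SYNE1 overlapped no listed gene.

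SUN1 had 46 counts (33.7 to 61.4) over 26.0 kb of chromosome 7 (856252 to 882205), or 1.77 per kb. SUN2 had 83 counts (66.1 to 103) over 20.8 kb of chromosome 22 (39130730 to 39151533), or 3.99 per kb. As listed, SUN2 was 2.25 times SUN1 per kb (1.55 to 3.30). The SUN1 interval may leave out part of the gene, which this interval of the ratio does not cover. The SUN2 interval holds 3 other listed genes, whose counts may be the same reads. Of these, 2 are nearly coincident processed transcripts at one end of SUN2, with 31 and 32 counts. The third is annotated as antisense, with 47 counts over 10.0 kb. The larger processed transcript and the antisense gene cover 68.7% of the SUN2 interval and together had 79 counts. If strand was ignored, so that all 79 also entered the SUN2 count, 4 counts (1.09 to 10.2) lay outside them over 6.50 kb. That is 0.615 per kb (0.168 to 1.57), which is under the SUN1 value. If strand was used, more of the 83 counts may have lain there, and how many cannot be told from the table.

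In all, 5 of the 10 genes overlapped another listed gene, against 34.7% of listed protein-coding genes. When the counts of overlapping genes were taken off, 5 genes still had 100 counts or more, and the median of the 10 went from 123 to 101.5. SUN2 and SYNE2 were the genes that lost the largest part of their counts, at most 95.2% and 43.3%. The other 3 lost at most 15.3%.

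The order by count was SYNE1, SYNE2, LBR, LMNB1, TMPO, SUN2, LMNB2, LMNA, SUN1, EMD. In that order 4 pairs of neighbours did not differ beyond counting error, as the 95% interval of their shared count included 50%: LMNB1 and TMPO, SUN2 and LMNB2, LMNB2 and LMNA, LMNA and SUN1. Per kb the order was LBR, LMNB2, TMPO, SUN2, LMNB1, EMD, SUN1, SYNE2, SYNE1, LMNA. The neighbours that differed were LMNB2 and TMPO, with a ratio of 2.29 (1.70 to 3.06), and SYNE2 and SYNE1. All other neighbours had intervals that included a ratio of 1. The median over the 10 genes was 3.12 counts per kb, against 1.54 over listed protein-coding genes, whose quartiles were 0.662 and 3.54. Of the 10, 7 lay above that median, and LMNA, SYNE1 and SYNE2 lay below it.

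**Figure D2:**
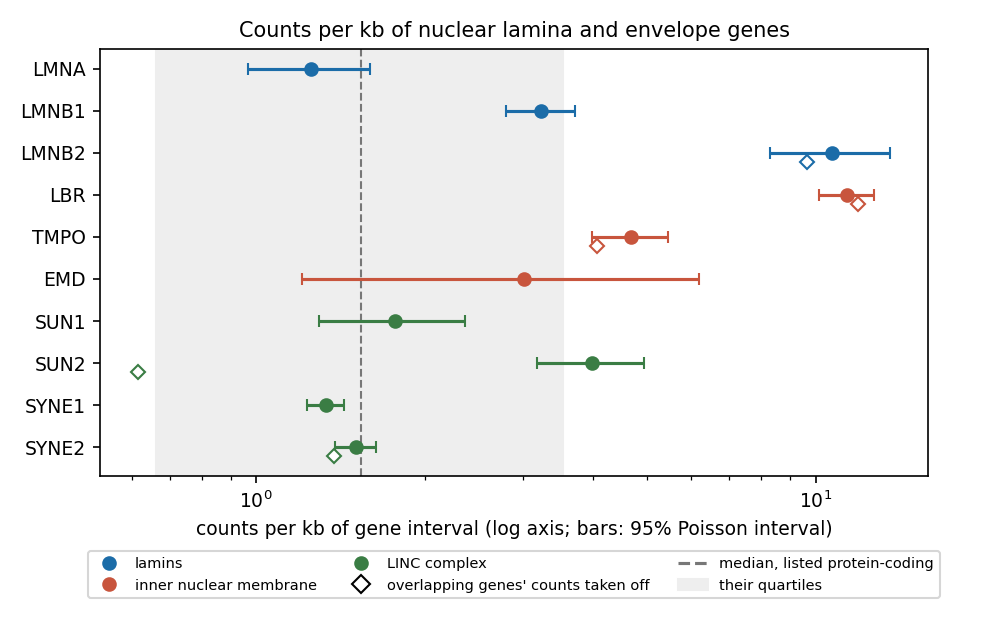
Counts per kb of listed interval for the 10 genes on a log axis, with exact 95% Poisson intervals, the protein-coding median (dashed, 1.54) and quartiles (grey). LBR and LMNB2 stand above 10 per kb, and the open diamond of SUN2 (0.615) lies far under its filled point (3.99).

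Longer genes had more counts in this table, so each gene was also set against a straight line of log2 count on log2 interval length, fitted over all 12220 listed protein-coding genes. The line had a slope of 0.38. Above it lay 9 of the 10 genes, against 50% of protein-coding genes. When protein-coding genes were instead divided into 10 equal groups by length, 9 of 10 were above the median count of their group, against 49.6%. LBR was farthest above, at 7.12 times the count on the line (log2 difference 2.83, percentile 96.8 of protein-coding genes). SYNE1 followed at 5.17 times (2.37) and SYNE2 at 4.80 times (2.26). TMPO was at 3.46 times (percentile 87.4), LMNB1 at 3.35 (86.7), LMNB2 at 2.75 (82.2) and SUN2 at 2.15 (75.3). Protein-coding genes scattered about the line with a standard deviation of 1.55 on the log2 scale. LMNA, at 1.18 times, and SUN1, at 1.09, lay within counting error of the line. EMD was below it (log2 difference -1.25, percentile 22.3). The median difference of the 10 genes was 1.60 on the log2 scale, against 0.000199 over all protein-coding genes. With overlapping counts taken off and the line read at the length left, SUN2 fell below the line (log2 difference -2.63), leaving 8 of 10 above. Across the 10 genes, which are not replicates, Spearman's rho between count and length was 0.77, and it was 0.43 across the protein-coding genes.

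**Figure D3:**
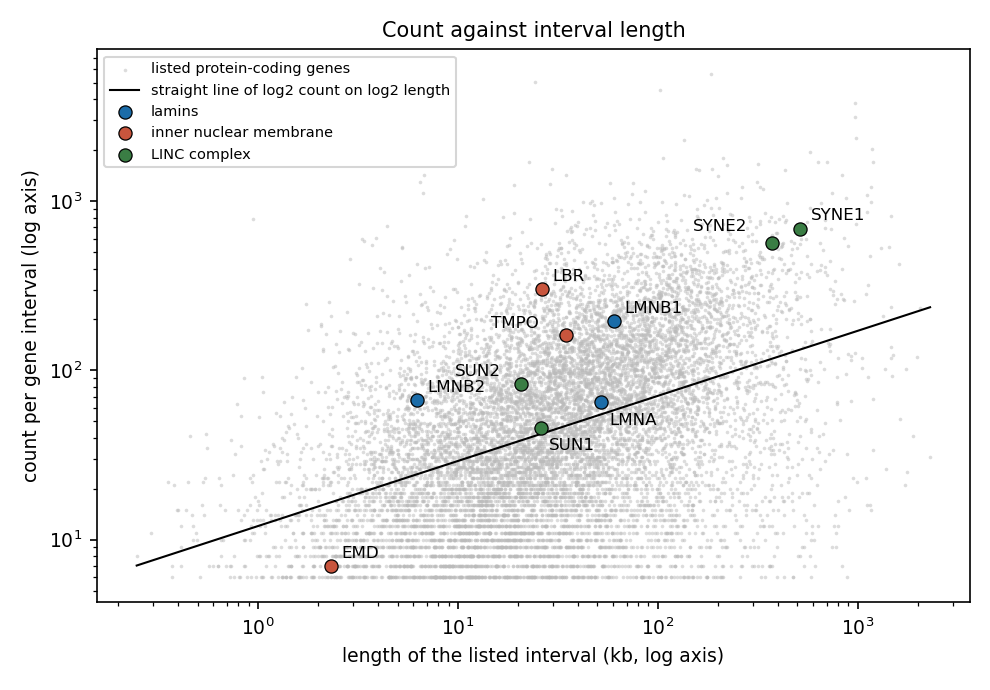
Count against length of the listed interval, both on log axes, for the listed protein-coding genes (grey), with the fitted line and the 10 genes coloured by role. LBR, SYNE1 and SYNE2 stand 7.12, 5.17 and 4.80 times above the line, and EMD lies under it near the lowest count of the table.

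The nearest listed genes on each side show the surroundings of each gene. Of these 20 neighbours, 15 had fewer counts than the gene they flank, against 53.8% of the 24419 such neighbours of all listed protein-coding genes. Per kb 11 of the 20 had fewer, against 48.3%. Genes with high counts exceed most neighbours anyway, so the first tally adds little to the counts themselves. EMD stood out at the low end. FLNA, the filamin A gene for an actin crosslinker, lies 7.99 kb away with 1694 counts (74.7 per kb), and RPL10, a ribosomal protein gene, 8.43 kb away on the other side with 37. LBR, with 11.4 per kb, lies 2.23 kb from DNAH14, a dynein gene that had 201 counts over 503 kb (0.400 per kb). LMNA had fewer counts per kb (1.25) than both of its neighbours, MEX3A (4.91) and SLC25A44 (4.33). SYNE1 had more per kb than both of its neighbours, ARMT1 (1.18) and LINC02840 (0.481).

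Other genes of the envelope were taken from lists written from their known roles, with earlier results of these data known. Of 12 further genes of inner membrane, LEM-domain and related proteins, 9 were listed with a median of 55 counts. Not all of the 12 encode proteins of the inner membrane itself. Of these, 2 had 100 or more, against 26.1% of listed protein-coding genes. ANKLE2, a LEM-domain gene needed for envelope reassembly after mitosis, had 368 counts (331 to 408), and TOR1AIP2, a torsin cofactor, had 269. LEMD2 and LEMD3, the genes of other LEM-domain proteins of the inner membrane, had 21 and 66 counts. TOR1AIP1, which encodes LAP1, had 41. TMEM120A was lowest at 11, and NRM, LEMD1 and PRR14 were not listed. Above the length line were 5 of the 9, against 50% of listed protein-coding genes.

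Of 9 other LINC and torsin genes, 4 were listed, with a median of 26 counts and none (0) at 100 or more. TOR1A, an ATPase of the envelope lumen, was highest at 78. SYNE3, for the nesprin that binds plectin, had 12 counts over 58.3 kb (0.206 per kb), against 1.33 and 1.51 per kb for SYNE1 and SYNE2. SYNE4, SUN3, SUN5, KASH5 and IRAG2 were not listed, and several of these are known from germ cells. Of the 5 genes that process the lamin tail, 4 were listed with a median of 50.5. FNTB, a farnesyltransferase subunit, had 101 counts, close to the threshold of 100, and overlapped 2 other listed genes. Counts of overlapping genes were not taken off in any companion list. The methyltransferase ICMT had 31 counts, ZMPSTE24, the protease of prelamin A, had 64, and RCE1 was not listed.

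Among 10 partners of the lamina and of emerin, 9 were listed with a median of 144, and 6 had 100 or more. BCLAF1, an emerin-binding RNA processing factor, had 526 counts (15.9 per kb). The HP1 genes CBX3, CBX5 and CBX1, whose proteins bind LBR or methylated histones, had 225, 219 and 144 counts. BANF1, which bridges LEM-domain proteins and DNA, had 11 over 2.07 kb and RB1 had 22. TMEM38A was not listed. Among 10 partners of nesprins in the cytoskeleton, 9 were listed with a median of 183. DST was highest at 5606 counts, followed by the plectin gene PLEC at 5026 (206 per kb). The motor genes DYNC1H1 and KIF5B had 863 and 829, while KLC2 and FHOD1 were lowest with 6 each, and DES was not listed. The medians of the 5 lists, from 26 to 183, lie on both sides of the protein-coding median of 43. At 100 counts or more were 1 of 4 lamin processing genes, 6 of 9 lamina and emerin partners and 5 of 9 nesprin partners, against 26.1% of listed protein-coding genes. Above the length line were 2 of 4 other LINC and torsin genes, 2 of 4 lamin processing genes and 6 of 9 in each partner list, against 50%.

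**Figure D4:**
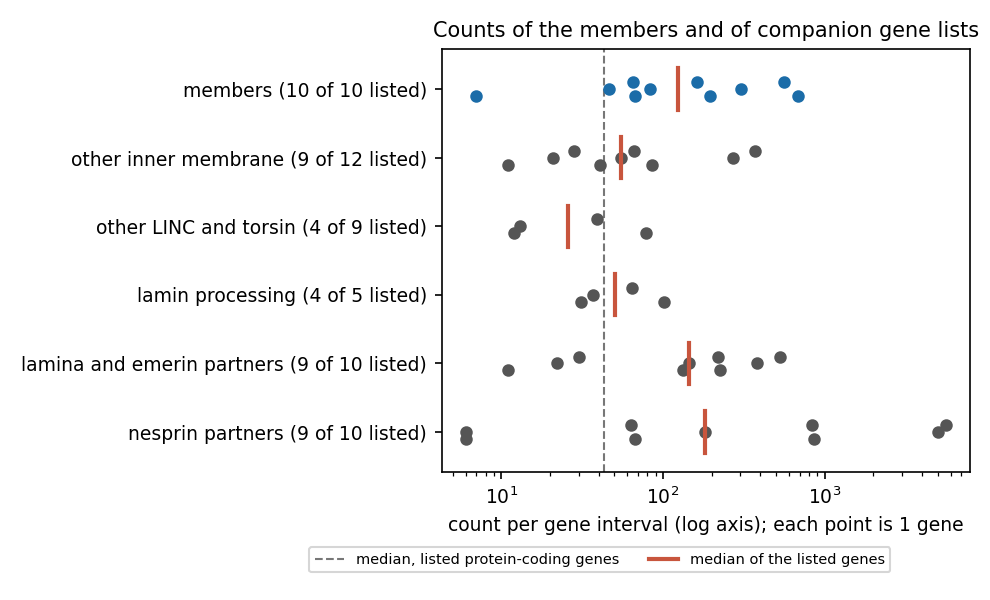
Counts on a log axis for the 10 genes and the companion lists, 1 point per listed gene, with each list's median (red) and the protein-coding median of 43 (dashed). The medians are 123 for the 10 genes, 55 for other inner membrane and related genes, and 26 for other LINC and torsin genes. They are 50.5 for lamin processing, 144 for lamina and emerin partners and 183 for nesprin partners.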

How the data were processed

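The authors deposited whole-number counts per Ensembl gene interval for the merge of 2 replicates, with position and biotype and no scaling for depth or length. The submitters' processing notes name build hg19, Bowtie and bedtools. Versions are not given there, nor is whether reads or sites were counted. Identifiers were paired with symbols for 16520 of 17201 genes. Counts per kb (interval length from end minus start plus 1), exact 95% Poisson and Clopper-Pearson intervals, and a least-squares line of log2 count on log2 length over all protein-coding genes were computed in Python 3.11.15 with scipy 1.17.1 and numpy 2.4.6. The line fit was also run on counts simulated from that same line. That checks the code, and not whether a straight line suits the real counts. With 1 merged sample no test between groups was made. Genes named are the 10, listed genes overlapping or flanking them, and the highest, lowest and absent genes of each companion list, with further list genes named after their values were seen. The genes and lists were chosen with earlier results of these data known. Alternatives were length scaling, thresholds, backgrounds and treatment of overlaps.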

Additional observations from a re-analysis of the deposited data

How the results depend on the processing

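The number of genes above the length line was 9 of 10 under all 3 planned ways of taking length into account, and each gene stayed on its side of the line in those 30 comparisons. It was 8 with overlapping counts taken off. The median of 123 counts was 65 over the 5 genes without overlap (protein-coding background 38), 163 over the 9 genes with at least 10 counts (background 52), 101.5 with overlapping counts taken off, 75 without SYNE1 and SYNE2, and 3.12 when counted per kb (background 1.54). With thresholds of 50 and 200 counts, 8 and 3 genes passed, against 45.7% and 11.6% of protein-coding genes. At 100 counts, 20.5% of all listed genes passed. The share of LMNA in the lamins was 8.25% per kb, and that of SYNE2 in its pair rose to 53.1% per kb because the SYNE1 interval is longer. The 10 genes held 0.191% of protein-coding counts. The 5 without overlap held 0.135% of the counts of genes without overlap. Both alternatives with overlapping counts taken off or without SYNE1 and SYNE2 were added after seeing the data. No paired analysis was possible because 1 merged table was used, and leaving out a replicate was not run for the same reason. Depth limits EMD, whose 7 counts lie near the lowest count of the table.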
